A study of Mus musculus with 2 samples.

Results

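The genes of the cytosolic ribosomal proteins are described here by the IRF4 peaks near their starts in CH12.LX cells. They were chosen by symbol from the RefSeq protein-coding genes of GRCm38 on chromosomes 1 to 19 and X: Rpl or Rps followed by a digit, Rplp followed by a digit, and Rpsa, leaving out the Rps6k kinases and pseudogene-like symbols. The rule used no measured value and gave 87 of the 20923 protein-coding genes for which a start was set. Of these, 53 have symbols of the large (60S) subunit and 34 of the small (40S) subunit. Going by their symbols, 77 are ribosomal proteins proper, and 10 are paralogues or other proteins that the rule also takes: Rpl22l1, Rps27l, Rpl32l, Rpl10l, Rpl36al, Rpl39l, Rpl3l, Rpl7l1, Rps23rg1 and Rps19bp1.

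CH12.LX is an immortalized B-cell lymphoma line from a mouse of strain B10.H-2aH-4bp/Wts. Chromatin immunoprecipitation with an antibody to IRF4, followed by sequencing (ChIP-seq), was done on 2 biological replicates of this line, with no treatment, allele or time named in the labels. These form 1 group, so there is no other condition to compare, and nothing says whether the replicates came from separate cultures. The labels name a separate experiment as a possible control, which was not used here.

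The ribosome is built from ribosomal RNA and about equimolar amounts of the ribosomal proteins, each usually encoded by a single active gene scattered through the genome. These genes are among the most highly transcribed in dividing cells, and their mRNAs begin with a C followed by a run of pyrimidines, the 5′ terminal oligopyrimidine (TOP) motif through which mTOR controls their translation. IRF4 is a transcription factor of B cells and plasma cells. By itself it binds DNA weakly at interferon-stimulated response elements (ISRE), and it binds with the ETS factors PU.1 or SPIB at ETS-IRF composite elements (EICE) and with BATF and JUN proteins at AP-1-IRF composite elements (AICE). Plasma cell differentiation, which needs IRF4, goes with a large rise in protein synthesis.

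The promoters of 12 members are printed to show the letters under and beside the peaks: 5 with the ETS motif CCGGAAG upstream of the start, 3 with the cyclic AMP response element (CRE) TGACGTCA near the summit, a pair among the stronger promoter peaks with neither, and a pair with no peak. Each is the 170 bases before the start listed by RefSeq in GRCm38.p6, written 5′ to 3′ on the strand of the gene. Capitals mark matches of the ETS, CRE, ISRE, EICE and AP-1 motifs on either strand. The small-subunit genes Rps3a1, Rps21 and Rps7 and the large-subunit genes Rpl41 and Rpl38 carry ETS matches, and Rpl38 also has an ISRE match.
Rps3a1 (chr3:86142669-86142838, minus strand): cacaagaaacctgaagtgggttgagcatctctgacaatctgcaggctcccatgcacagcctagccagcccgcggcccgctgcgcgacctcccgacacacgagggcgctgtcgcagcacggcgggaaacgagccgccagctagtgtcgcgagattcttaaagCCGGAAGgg
Rpl41 (chr10:128549169-128549338, minus strand): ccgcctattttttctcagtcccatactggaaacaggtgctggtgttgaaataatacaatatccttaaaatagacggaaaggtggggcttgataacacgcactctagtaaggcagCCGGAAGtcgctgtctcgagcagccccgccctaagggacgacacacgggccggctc
Rps7 (chr12:28635954-28636123, minus strand): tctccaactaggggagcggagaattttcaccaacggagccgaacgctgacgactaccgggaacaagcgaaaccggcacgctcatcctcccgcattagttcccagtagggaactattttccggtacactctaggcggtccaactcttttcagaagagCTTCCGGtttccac
Rps21 (chr2:180257209-180257378, plus strand): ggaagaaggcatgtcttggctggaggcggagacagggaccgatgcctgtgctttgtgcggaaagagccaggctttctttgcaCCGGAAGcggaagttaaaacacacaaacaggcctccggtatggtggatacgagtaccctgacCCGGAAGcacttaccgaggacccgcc
Rpl38 (chr11:114668410-114668579, plus strand): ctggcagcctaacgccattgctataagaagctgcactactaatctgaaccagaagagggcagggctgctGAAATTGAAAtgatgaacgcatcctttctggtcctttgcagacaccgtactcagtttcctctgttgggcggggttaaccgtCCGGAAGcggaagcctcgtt
The 3 large-subunit genes that follow have the CRE, and Rpl27a has an ETS match at the far end of the window as well.
Rpl13 (chr8:123102180-123102349, plus strand): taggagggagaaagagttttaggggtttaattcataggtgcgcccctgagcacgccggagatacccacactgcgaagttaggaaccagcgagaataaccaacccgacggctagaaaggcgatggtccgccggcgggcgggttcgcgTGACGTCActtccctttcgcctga
Rpl27a (chr7:109519025-109519194, plus strand): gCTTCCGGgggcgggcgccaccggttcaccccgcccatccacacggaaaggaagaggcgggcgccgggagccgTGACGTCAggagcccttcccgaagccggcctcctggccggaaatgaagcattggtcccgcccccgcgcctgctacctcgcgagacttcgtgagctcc
Rpl26 (chr11:68901396-68901565, plus strand): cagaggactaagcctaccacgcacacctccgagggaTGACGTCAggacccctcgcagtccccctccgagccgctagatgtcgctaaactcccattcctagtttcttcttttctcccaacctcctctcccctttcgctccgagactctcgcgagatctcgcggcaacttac
Rpl23 and Rps3 have a promoter peak and none of the 5 motifs in these bases.
Rpl23 (chr11:97782440-97782609, minus strand): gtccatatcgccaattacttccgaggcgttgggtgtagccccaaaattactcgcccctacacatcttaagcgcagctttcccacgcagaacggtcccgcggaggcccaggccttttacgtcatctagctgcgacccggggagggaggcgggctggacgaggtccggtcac
Rps3 (chr7:99483710-99483879, minus strand): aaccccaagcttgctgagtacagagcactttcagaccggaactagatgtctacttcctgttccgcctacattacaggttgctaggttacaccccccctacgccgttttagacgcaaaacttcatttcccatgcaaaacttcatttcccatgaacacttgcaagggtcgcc
Rps6 and Rpl31 have no peak of the optimal list within 10 kb, and Rps6 has an ETS match all the same.
Rps6 (chr4:86857368-86857537, minus strand): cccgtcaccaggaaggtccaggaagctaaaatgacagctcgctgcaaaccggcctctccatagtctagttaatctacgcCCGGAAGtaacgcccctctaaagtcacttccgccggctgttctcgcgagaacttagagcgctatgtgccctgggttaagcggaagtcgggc
Rpl31 (chr1:39367681-39367850, plus strand): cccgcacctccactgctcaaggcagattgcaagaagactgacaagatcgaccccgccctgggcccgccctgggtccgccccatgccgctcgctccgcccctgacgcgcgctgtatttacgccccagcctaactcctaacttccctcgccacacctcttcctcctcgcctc

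Most ribosomal protein genes had an IRF4 peak close to their start. In the optimal list, made by the authors from both replicates by the irreproducible discovery rate (IDR), 80 of 87 members (92.0%, 95% Wilson interval 84.3% to 96.0%) had a summit within 10 kb of the start, beside 50.3% of all protein-coding genes. Within 1 kb, 58 of 87 (66.7%, interval 56.2% to 75.7%) had one, beside 31.9% of all genes. The stricter conservative list had a summit within 1 kb of 48 members, beside 26.9% of all genes. These intervals cover counting error over genes only, and the genes are not independent samples.

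The subunits had like shares. Of the 60S genes, 50 of 53 had a summit within 10 kb and 35 (66.0%) within 1 kb; of the 40S genes, 30 of 34 and 23 (67.6%). Among the 77 ribosomal proteins proper, 73 had a summit within 10 kb and 53 (68.8%) within 1 kb. Leaving out the paralogues therefore moved the share within 1 kb by less than its interval.

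Like shares stood in other lists of widely expressed genes. Of the 78 genes of mitochondrial ribosomal proteins, which build the separate ribosome of the organelle, 55 (70.5%) had a summit within 1 kb. Of 51 proteasome subunit genes, 34 (66.7%) had one, and of 70 genes of a translation list, 47 (67.1%). Within 10 kb the shares were 83.3%, 80.4% and 85.7%, and the intervals of all 3 overlap that of the members. The plot of the share by distance shows the members level with these lists from 500 to 5000 bp.

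**Figure D1:**
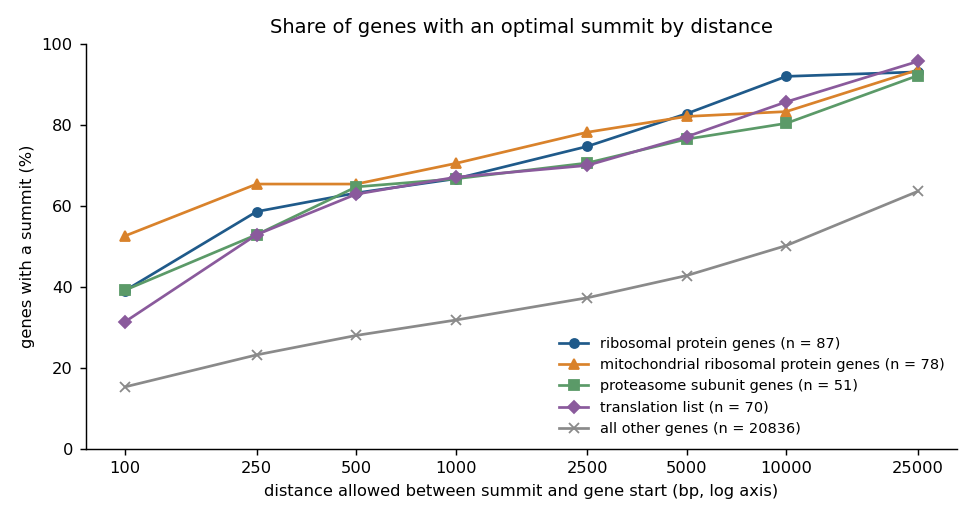
Percent of genes with at least 1 summit of the optimal list within the distance on the x axis (bp, log axis), for ribosomal protein genes, the 3 comparison lists and all other genes. At 1000 bp the ribosomal protein genes stand at 66.7%, the comparison lists at 66.7% to 70.5% and all other genes at 31.8%; at 10000 bp the ribosomal protein genes stand at 92.0%.

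Ribosomal protein genes also had more neighbours than all genes, as did the comparison lists. Another protein-coding gene starts within 10 kb of 44 of the 87 (50.6%), beside 27.6% of all genes. A divergent partner start lies nearby in 14 (16.1%), beside 6.83%. For the mitochondrial, proteasome and translation lists the shares with another start were 60.3%, 47.1% and 45.7%. Their shares with a divergent partner were 26.9%, 17.6% and 22.9%. Of the 14 with a divergent partner, 12 had a summit within 1 kb (85.7%, beside 64.7% of all genes with such a partner). Of the 73 without one, 46 did (63.0%, beside 29.5%). When a summit was counted only if no other gene start lay nearer to it, 63 of 87 members kept one within 10 kb, beside 43.6% of all genes. The share within 10 kb therefore holds many summits at the starts of neighbours, described gene by gene further on.

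The signal value of a peak is the caller's own measure of enrichment, whose scale is not stated, so it is read only as an order within a list. Over the 58 members with a summit within 1 kb, the strongest such summit had a median signal of 46.7, with an interquartile range of 33.3 to 64.2 and extremes of 14.7 and 160. Over all genes with a summit within 1 kb the median was 41.7. It was 48.5 for the mitochondrial ribosomal proteins, 50.9 for the proteasome and 43.4 for the translation list. Member promoters were thus of middling strength: 13 of 58 (22.4%) reached the top quartile of the optimal list, beside 18.2% of all promoter peaks. Only 2 members passed a signal of 100, Rpl23a and Rps3a1 (3.45% of the 58, beside 6.04%).

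**Figure D2:**
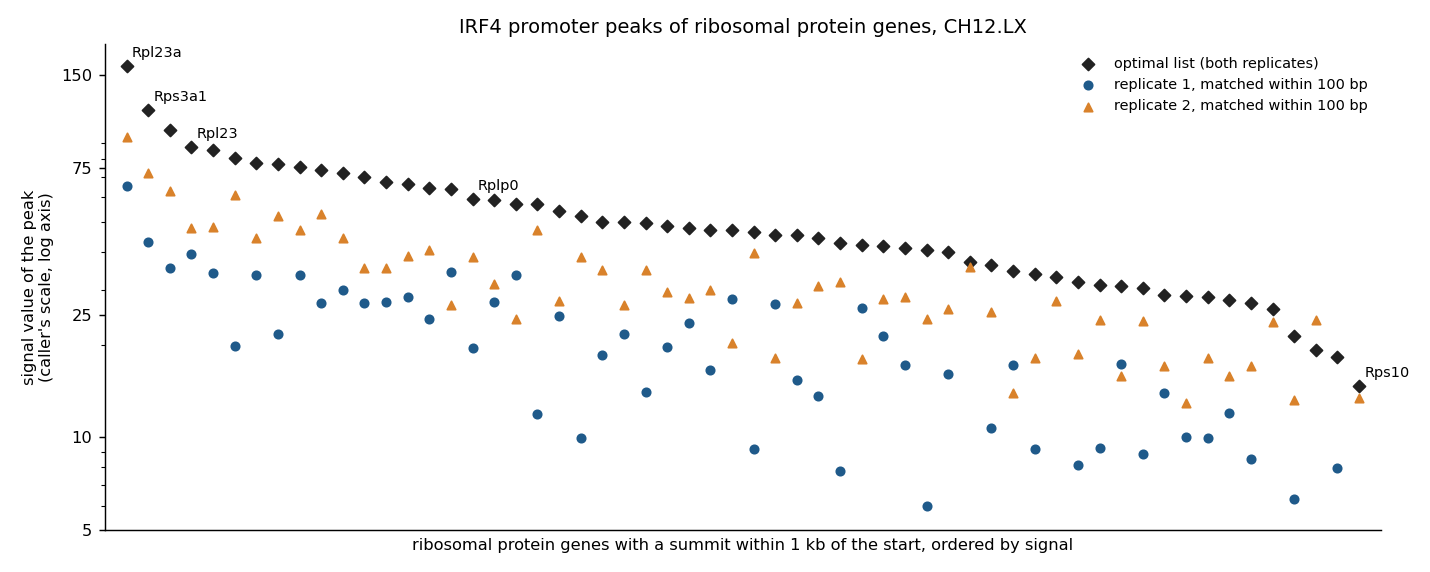
Signal value (log axis) of the strongest summit within 1 kb for each of the 58 ribosomal protein genes that have one, ordered by it along the x axis, in the optimal list (black) and at the matched peak of replicate 1 (blue) and replicate 2 (orange). Values fall from 160 at Rpl23a to 14.7 at Rps10; replicate 2 lies above replicate 1 at 45 of the 52 genes with a match in both.

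Among the large-subunit genes, Rpl23a, whose protein sits at the mouth of the exit tunnel, had the strongest promoter peak, with 65.6 in replicate 1, 94.0 in replicate 2 and 160 in the optimal list. Its summit lay 739 bp upstream of the start, on chromosome 11. A weaker summit of 45.2 lay 145 bp upstream and another of 30.8 lay 490 bp into the gene. Rpl23, which contributes to the face that meets the small subunit, had 39.4 and 47.6 in the replicates and 87.7 in the optimal list, 24 bp upstream of the start printed above. Rpl27, a gene mutated in Diamond-Blackfan anaemia, had 19.7 and 61.3 in the replicates and 80.3 in the optimal list, 19 bp downstream of its start.

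Further 60S promoters with signals from 64.2 to 76.9 were those of Rpl37 (21.7 and 52.4 in the replicates), Rpl9 (27.3 and 53.0), Rpl38 (29.9 and 44.4), Rpl36 (27.2 and 35.4), Rpl41 (27.6 and 35.4) and Rpl13 (24.1 and 40.4). In each of them replicate 2 had the higher value. The summits of Rpl37, Rpl9 and Rpl36 lay nearer to the start of a divergent partner, 17 bp from Card6, 16 bp from Lias and 4 bp from Micos13. Over all 58 promoter summits, 51 were nearest to the start of the member itself. The other 4 exceptions were at Rpl15, Rpl36al, Rps18 and Rps25. Rpl41 encodes a very short peptide that bridges the subunits, and Rpl38 is known from mice for its part in translating Hox mRNAs. The Rpl38 summit is 648 bp into the gene as RefSeq outlines it, and 114 bp upstream of the start whose promoter is printed, 17 bp from the centre of the ISRE match at position -97.

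Of the 3 proteins of the stalk, which calls translation factors to the ribosome, only the gene of Rplp0, the stalk base, had a promoter peak. It had 19.5 and 38.5 in the replicates and 59.1 in the optimal list, 138 bp upstream. Rplp1 had a single summit of 20.5, 7418 bp downstream of its start, with 14.5 in replicate 1 and no match in replicate 2. Rplp2 had a single summit of 44.0, 4337 bp upstream, with 21.8 and 18.7. The genes of Rpl5 and Rpl11, which bind the small ribosomal RNA of the large subunit and can hold back the p53 ligase MDM2, both had promoter peaks of like height. Rpl5 had 9.99 and 38.4 in the replicates and 52.4 in the optimal list, 19 bp downstream, and Rpl11 had 18.6 and 34.9 in the replicates and 50 in the optimal list, 58 bp upstream. The replicates stood further apart at Rpl5 than at Rpl11.

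Of the proteins that line or surround the exit tunnel, 7 genes were listed: Rpl4, Rpl17, Rpl22, Rpl23a, Rpl26, Rpl35 and Rpl39. All 7 listed had a summit within 10 kb, beside 92.0% of the members and 50.3% of all genes. Within 1 kb 4 had one (57.1%, beside 66.7% and 31.9%): Rpl4 (45.3), Rpl23a (160), Rpl26 (41.0) and Rpl39 (31.9). All 16 listed Diamond-Blackfan anaemia genes had a summit within 10 kb, beside the same 92.0% and 50.3%. Within 1 kb 13 (81.2%) had one, beside 66.7% of the members and 31.9% of all genes. Of these 13 summits, 8 (61.5%) were matched in both replicates, beside 89.7% for the members with a promoter summit. Their median promoter signal was 41.0, close to that of all genes, and they included the weakest member promoters, Rps10 and Rps27. The exceptions, with a summit only further off, were Rps19, the gene most often mutated in that anaemia, Rps24 and Rps29.

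Among the small-subunit genes, Rps3a1 had the strongest promoter peak, chr3:86142667-86143006, with 42.9 in replicate 1, 72.0 in replicate 2 and 116 in the optimal list. Its summit lay 169 bp upstream, at the far end of the printed bases, whereas the ETS match is centred 6 bp upstream. Rps20 had 34.1 and 48.0 in the replicates and 85.7 in the optimal list, 73 bp upstream. Rps3, whose protein lies where mRNA enters the ribosome and also acts in DNA repair, had 33.6 and 44.4 in the replicates and 77.7 in the optimal list, 121 bp upstream. Rps26, which touches the mRNA at the exit channel, had 33.5 and 46.9 in the replicates and 75.3 in the optimal list, 244 bp upstream. Among the next were peaks at Rps18 (66.1), Rps15 (64.0), Rps7 (57.3) and Rps12 (54.2).

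The weakest promoter peaks of the 58 were those of Rps10 (14.7), Rps27 (18.2), Rps28 (19.3), Rpl7a (21.3) and Rpl15 (26.0). Rps10, a protein near the mRNA entry site, had 13.4 in replicate 2 and no match in replicate 1. Rps27 had 7.95 in replicate 1 and no match in replicate 2. Rps28 had 24.0 in replicate 2 alone, and Rpl15 23.6 in replicate 2 alone. Each of these summits other than that of Rpl15 lay downstream of the start.

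Of the 10 paralogues and other proteins, 5 had a promoter peak. Rps19bp1, which encodes a partner protein of Rps19 and no ribosomal protein, had the strongest, with 35.5 and 62.7 in the replicates and 99.2 in the optimal list, 46 bp upstream. Rpl7l1 (48.5), Rpl39l (47.7), Rpl36al (31.0) and Rpl22l1 (28.4) followed. Rpl39l, a paralogue of Rpl39 best known from male germ cells, also had one of the strongest summits near any member, 1346 bp into the gene, with 71.9 and 109 in the replicates and 179 in the optimal list. Rpl3l, the striated-muscle paralogue of Rpl3, had summits only beyond 1 kb, the strongest being 75 bp from the start of Ndufb10. Reads of paralogues and of the many processed copies of ribosomal protein genes may be shared between places, and how the alignment treated such reads is not given in the sources used here.

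Where a promoter peak was present it sat mostly just upstream of the start. The strongest summit within 1 kb had a median position of -60.5 bp in the 58 members and -14 bp over all genes. It lay upstream in 40 of 58 (69.0%, beside 53.3% of all promoter peaks), and in the 150 bp before the start in 30 of 58 (51.7%, beside 31.5%). Within 250 bp of the start on either side lay 50 of 58 (86.2%, beside 66.6%). In the mitochondrial, proteasome and translation lists the share within 250 bp was 87.3%, 76.5% and 76.6%. The share of these lists in the 150 bp before the start was 43.6%, 38.2% and 34%. In 40S genes the median was -46 bp and in 60S genes -61 bp. The first 100 bp upstream held 41.4% of the member summits, and 24.2% of those of other genes, as the position plot shows. That bin held 36.4% in the mitochondrial list and 29.4% in the proteasome list, which are not plotted.

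**Figure D3:**
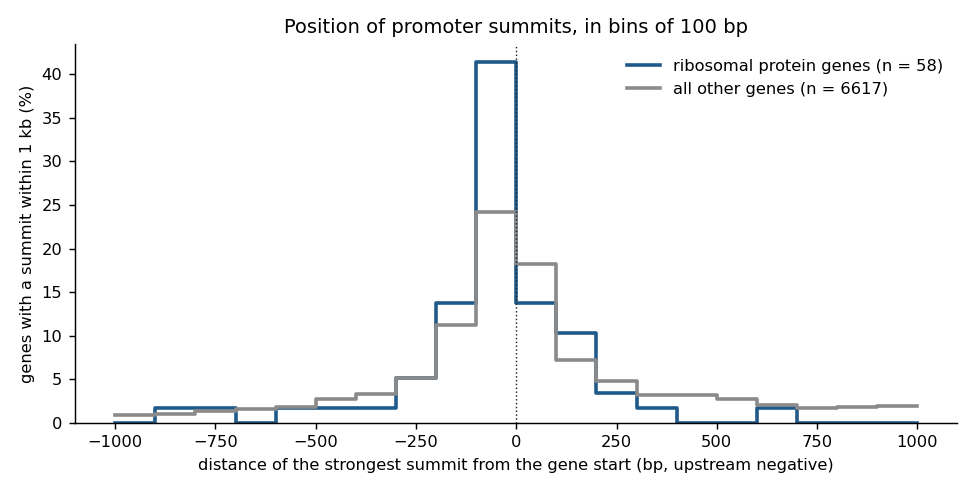
Position of the strongest summit within 1 kb of the start, in bins of 100 bp (x axis, upstream negative), as percent of the 58 ribosomal protein genes and of the 6617 other genes that have one. The bin just upstream of the start holds 41.4% of the ribosomal protein genes and 24.2% of the others.

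A second set of summits lay further out, and many of them stood at other genes. Within 10 kb there were 155 pairs of a member and a summit, from 151 separate summits, since 4 summits were shared by neighbouring members (Rps2 and Rpl3l are one such pair). The strongest summit lay beyond 1 kb in 33 members, 22 of which had no nearer one (25.3% of the 87, beside 18.4% of all genes). In 20 of the 33, another gene started nearer to the summit than the outer end of the member, Rpl18 and Rpl19 among them, whose further listed starts are given later. For the 33, the 20 and the plotted pairs the shares over all genes are not given here. These counts therefore describe the members only and are not read as particular to them. The exon and intron boundaries of this build were not used here, so a summit is placed only by gene outline.

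**Figure D4:**
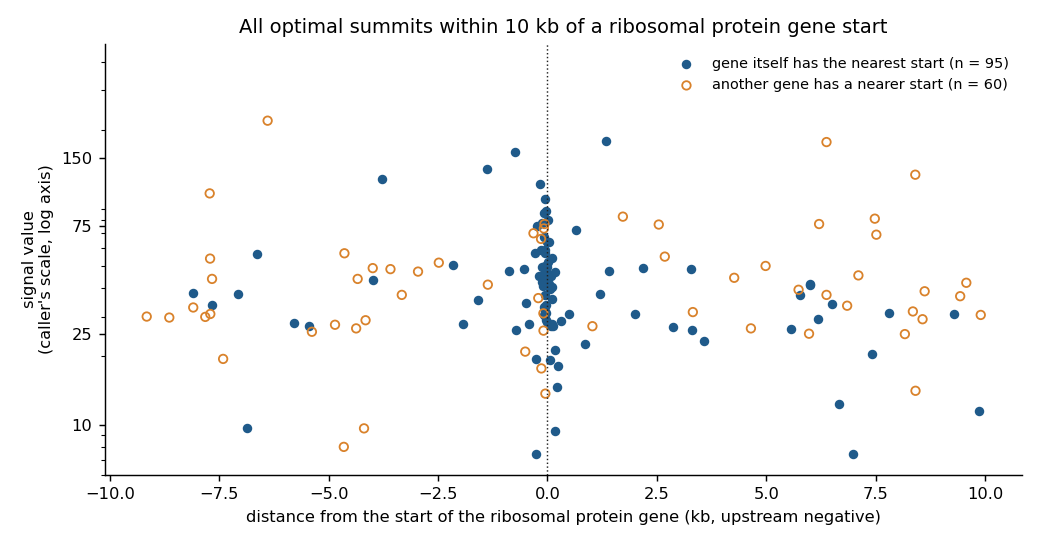
Signal value (log axis) of all 155 pairs of a ribosomal protein gene and an optimal summit within 10 kb, by distance from the start of that gene (kb, upstream negative). Filled points have no nearer gene start (95) and open points do (60); the strongest value, 220 upstream of Rpl35, is an open point.

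The strongest summit near any member was at Rpl35, an exit tunnel protein gene on chromosome 2 (chr2:39011517-39011601), with 89.0 in replicate 1, 131 in replicate 2 and 220 in the optimal list. It lay 6394 bp upstream of Rpl35, inside the outline of Arpc5l, an actin-regulating gene whose start is nearer. Rpl35 had 6 summits within 10 kb, none of them within 1 kb. The strongest summit near Rps9, of 127 (61.0 and 66.0), lay 8406 bp downstream, with the start of Pirb, an inhibitory receptor gene of B cells and myeloid cells, 8022 bp away. That near Rpl13a, of 105 (49.0 and 59.0), lay 27 bp from the start of Flt3l, which encodes the ligand of FLT3. Rpl23a too had a summit of 177 (56.2 and 122) 6377 bp downstream, 491 bp from the start of Tlcd1.

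In other members the strongest summit stood at or near the start of a neighbour. The summit near Rpl36a (51.9) lay 456 bp from the start of Btk, the B-cell tyrosine kinase gene, and that near Rps24 (48.6) lay 21 bp from Polr3a. The summit near Rpl24 (81.2) lay inside Zbtb11. Those near Rpl8 (28.9), Rpl7 (41.5) and Rpl29 (36.9) lay within 87 bp of the starts of Commd5, Rdh10 and Acy1. The summit shared by Rps2 and Rpl3l (37.4) lay 75 bp from Ndufb10, and that near Rpl7a (54.1) lay 89 bp from Surf6. In these members other than Rpl24 the peak lay within 456 bp of another gene's start.

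A smaller number of distal summits had no nearer gene start. Rpl39 had 42.6 and 78.9 in the replicates and 122 in the optimal list 3774 bp upstream, besides a promoter peak of 31.9. Rps13 (50.6), Rps15a (43.6), Rps19 (41.8), Rpsa (41.2), Rpl14 (37.2), Rpl17 (33.7), Rpl32 (27.3) and Rplp1 (20.5) likewise had their strongest summit 2155 to 7674 bp away with no other start nearer. Summits near Rpl28 (26.6), Rps29 (30.0), Rplp2 (44.0) and Rpl41 (82.9) were nearer to the start of another gene.

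The start used here is the outer end of the gene outline, and some members have another start listed by RefSeq. Rpl22 had a summit of 37.8 that is 1212 bp into the outline but 78 bp upstream of a listed start, and Rps27l one of 47.7 that is 58 bp upstream of one. The strongest summit of Rpl19 lay 64 bp downstream of a listed start, and that of Rpl18 (76.5) 60 bp upstream of one and 9 bp from the start of Sphk2. With any listed start allowed, Rpl19, Rpl22, Rps2 and Rps27l join the members with a summit within 1 kb, which makes 62 of 87, beside 35.0% of all genes.

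No summit of the optimal list lay within 10 kb of 7 members: Rpl31, Rps6, Rps14, Rps4x, Rpl10l, Rpl32l and Rps23rg1. The first 4 encode ribosomal proteins proper, among them Rps6, the target of the S6 kinases, and Rps4x, which lies on the X chromosome. All 4 had peaks in the relaxed lists. In the relaxed list of both replicates pooled, the strongest summit within 1 kb had a signal of 24.1 at Rpl31, 21.3 at Rps14, 18.1 at Rps4x and 17.1 at Rps6. In the replicates the values were 12.0 and 13.7 at Rpl31, 13.4 and 8.96 at Rps14, 10.3 and 9.19 at Rps4x, and 7.62 and 8.66 at Rps6. All stood within 258 bp of the start. Signals in the optimal list went down to 6.92 and its lower quartile was 29.4, so these 4 starts had weak peaks in the relaxed lists that are not in the optimal list. Of all 10392 genes with no optimal summit within 10 kb, 29.5% had a relaxed pooled summit within 1 kb. Rpl10l and Rpl32l had none in any relaxed list, and Rps23rg1 had one of 6.98 in the pooled list alone.

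The replicates ranked the member promoters only roughly alike. Of the 58 strongest promoter summits, 52 (89.7%, beside 82.4% of all genes with one) had a peak within 100 bp in both relaxed replicate lists. Over these 52 the median signal was 19.6 in replicate 1, with extremes of 5.98 and 65.6, and 29.0 in replicate 2, with extremes of 12.9 and 94.0. Replicate 2 was higher at 45 of 52 (86.5%, beside 81.4%), with a median log2 ratio of 0.71 (SD 0.68 over genes), beside 0.57 over all genes. The 2 lists are not scaled to each other, and the depth of each is unknown. Spearman's correlation between the replicates was 0.55 over the 52 genes and 0.56 over all 5497 genes matched in both, given as a description.

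Among the members that differed most in rank between replicates were Rps21 and Rpl5, placed higher in replicate 2, and Rps7, Rpl21 and Rps23, placed higher in replicate 1. Rps21, with 2 ETS matches in the printed bases, had 9.15 in replicate 1 and 39.6 in replicate 2, ranks 33764 and 11273 when the 37628 optimal peaks matched in both replicates are ordered by each. Rps7 had 33.7 and 24.2, ranks 7868 and 21932 in the same orders. The peaks at Rps21 and Rpl5 were also absent from the conservative list, as 15 of the 58 strongest promoter summits were. The other 43 (74.1%) were in it, close to the 73.8% over all genes with a promoter summit. No match within 100 bp was found in replicate 1 for Rpl15, Rpl34, Rpl35a, Rps10 and Rps28, nor in replicate 2 for Rps27. Among distal summits, the one near Rpl19 (50.2) had 38.3 in replicate 1 and no match in replicate 2, and the one near Rpl7a (54.1) had 45.3 in replicate 2 alone.

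RefSeq promoter entries, from 250 bp before to 50 bp after the listed start in GRCm38.p6, were found for 67 of the 87 members and for 17274 genes in all. The 300 bp windows of members had a median GC content of 57.0%, beside 56.3%, and a median of 21 CpG dinucleotides, beside 14. A run of at least 5 pyrimidines that opens with a C exactly at the listed start, as in a TOP mRNA, was read at 13 of 67 members (19.4%) and at 2.19% of all genes. A summit lay inside the window in 39 of 67 (58.2%), beside 20.6% of all genes, at a median of -61 bp and -60 bp. Among windows with a summit, members and all genes had median GC contents of 58% and 61%, and medians of 21 and 22 CpG dinucleotides. The pyrimidine run was read there at 5 of 39 members (12.8%) and at 2.33% of all genes.

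The ETS motif CCGGAAG was matched in 25 of 67 member windows (37.3%, Wilson interval 26.7% to 49.3%), beside 12.1% of all windows. Of the 3559 windows of any gene that hold a summit, 28.9% had a match, and of the 39 member windows with a summit, 16 (41.0%). Of the 28 member windows with no summit, 9 had a match, among them Rps6 and, 11 bp after its start, Rpl31. Over all genes, 2084 of 17274 windows had a match, 1029 of them among the 3559 windows with a summit. Matches were thus present in windows without a summit too, in members and in all genes. The match lay within 50 bp of the summit in 8 of 39 members (20.5%), beside 17.1% of all windows with a summit. Those included Rpl41, with the match centred at -53 and the summit at -76, Rps21, with a match at -23 and the summit at 6, and Rps7, with the match at -11 and the summit at -60.

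Of the motifs that contain an IRF site, ISRE was matched in 7 of 67 windows (10.4%, interval 5.15% to 20%), beside 3.43% of all windows. In windows with a summit it stood at 12.8% of members and 3.88% of all. The 7 were Rpl4, Rpl5, Rpl27a, Rpl38, Rps7, Rps19 and Rps23. At Rpl38 alone was it within 50 bp of the summit. EICE was matched once, at Rpl37 33 bp after the start (1.49%, beside 2.67%), and AICE in no member window, beside 0.11% of all. AP-1, spelled TGANTCA, was matched once, at Rpl9 (1.49%, beside 7.09%), 112 bp upstream of a start whose summit is 82 bp upstream. Within 50 bp of the summit, that 1 window made 2.56% of members, beside 2.16% of all windows with a summit. The B-cell octamer ATTTGCAT was matched in no member window, beside 1.74%.

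Motifs of general promoter factors varied. The YY1 motif AAGATGG was in 10 windows (14.9%, beside 6.40%), the SP motif GGGCGG in 40 (59.7%, beside 46.9%), and the NFY motif CCAAT in 21 (31.3%, beside 39.6%). Among windows with a summit only, YY1 stood at 15.4% of members and 8.91% of all, SP at 64.1% and 65.9%, and NFY at 33.3% and 38.1%. For SP the order of members and all genes had thus turned in that set. Within 50 bp of the summit SP kept that order, at 33.3% and 34.6%. The order turned there for YY1, at 2.56% (1 of 39 member windows) and 3.12%, and for NFY, at 20.5% and 15.2%. The E-box CACGTG was in 5 (7.46%, beside 8.01%) and the NRF1 motif GCGCATGC in 2 (2.99%, beside 3.64%). The CRE TGACGTCA was in 5 windows (7.46%, interval 3.23% to 16.3%, beside 2.36%), those of Rpl13, Rpl18, Rpl26, Rpl27a and Rps9, all 5 with a summit in the window. It lay within 50 bp of the summit in 4 of them: at Rpl13 the match is centred at -21 and the summit at -15, and at Rpl27a the positions are -94 and -64. Of all windows with a summit, 5.39% had a CRE, and of member windows with a summit 12.8%. Within 50 bp of the summit these shares were 3.51% and 10.3%. All motifs were searched on both strands, matches may overlap (an EICE and an ETS match do at Rpl37), and a match is a description of letters, not of binding.

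**Figure D5:**
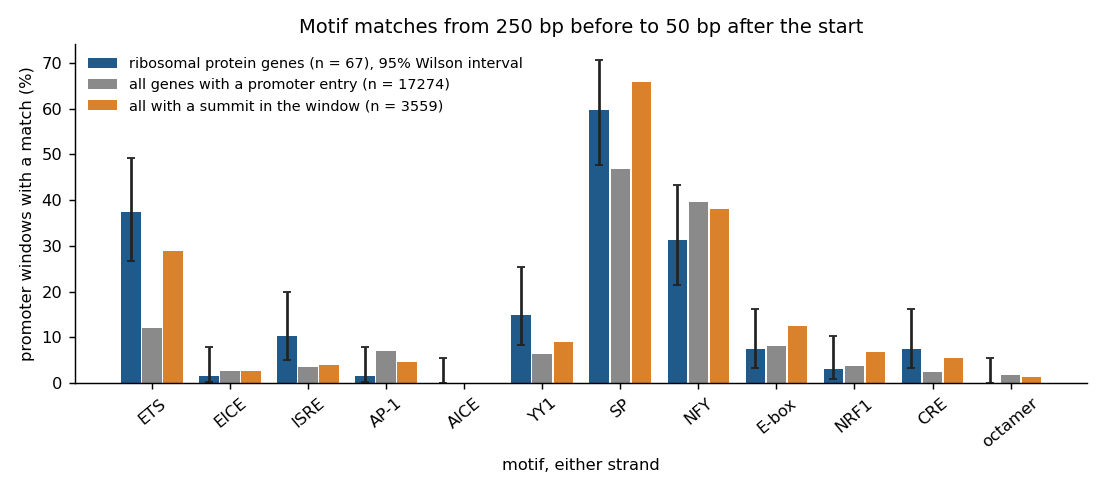
Percent of promoter windows with at least 1 match on either strand, for 67 ribosomal protein genes (bars with 95% Wilson intervals), all 17274 genes with a promoter entry and the 3559 of them with a summit in the window. ETS stands at 37.3%, 12.1% and 28.9%, and CRE at 7.46%, 2.36% and 5.39%.

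Genes that work with the ribosomal proteins had promoter peaks of the same order. Of the ribosomal genes whose symbols fall outside the rule, Rack1, a scaffold on the small subunit, had 37.3 and 56.2 in the replicates and 94.1 in the optimal list. Fau, whose ribosomal protein is made fused to a ubiquitin-like one, had 38.5 in the optimal list. Of 34 genes of the nucleolus and of ribosome assembly, 28 had a summit within 10 kb and 20 (58.8%) within 1 kb, where all genes stood at 50.3% and 31.9%. Of 18 initiation factor genes 14 (77.8%) had one within 1 kb, and of 6 elongation factor genes 3. Eef1a1, which brings aminoacyl-tRNA to the ribosome, had 47.3 and 47.0 in the replicates and 93.5 in the optimal list, 167 bp upstream. Of 9 genes that control ribosomal protein mRNA through mTOR, 7 had one within 1 kb, the strongest at Rheb, the GTPase that activates mTOR (57.5 and 90.7, 146 in the optimal list, 234 bp upstream).

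The strongest summits within 10 kb in the comparison lists can be set beside the 220 near Rpl35. Among mitochondrial ribosomal proteins they were at Mrpl16 (190, 3793 bp upstream), Mrpl39 (177, 49 bp upstream) and Mrpl12 (150, 24 bp upstream). Among proteasome genes they were near Psmb9 (333, 6617 bp downstream), Psmd1 (227, 4978 bp upstream) and Psmb8 (217, 137 bp downstream). Psmb9 and Psmd1 had no summit within 1 kb. Psmb8 and Psmb9 encode interferon-inducible subunits of the immunoproteasome. In the translation list they were at Nop10 (196, 6140 bp downstream), Ltv1 (147, 8750 bp downstream) and Rheb. Within 1 kb the highest signal was 160 for the members, 177 for the mitochondrial list, 217 for the proteasome and 146 for the translation list.

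On the mm9 assembly the authors deposited a separate list made from both replicates together, with 27671 peaks. There, 24 of 83 matched members had a summit within 1 kb of a GENCODE gene start, beside 17.4% of 22208 genes. Both shares were thus lower than in the optimal list, where 58 of 87 members and 31.9% of all genes had one. The part of the inputs and gene starts, which differ between the lists, was not tested.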

How the data were processed

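IRF4 ChIP-seq of CH12.LX was deposited as narrowPeak lists for 2 biological replicates, which form 1 group. Per the labels' file descriptions, relaxed lists of each replicate and of the pool, and the optimal and conservative IDR lists, are on mm10, and another list is on mm9. Which aligner and caller ran, with which settings, is not given in the sources used here. Since no read numbers are used, the depth is unknown. The deposited signal value of each peak is the authors', on a scale not stated. A further deposited column, treated as a score, was not used for results. No column belonged to samples of other series (0).

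The summit was the peak start plus its offset. A gene start was the outer end of the RefSeq GRCm38.p6 gene, on the strand of the RefSeq promoter table (17274 genes) or of GENCODE (3649); the strands were equal for 99.7% of 14731 genes in both. The strongest summit within 10 kb or 1 kb was taken, with its distance, and matched to replicate peaks within 100 bp by summit. Intervals are Wilson 95%. Comparisons are counts and medians beside those of all genes, and no test was run.

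The members and the lists were chosen with earlier results of these data known. The genes named were the 10 strongest and 5 weakest by summit within 10 kb, those with no summit or with the strongest beyond 1 kb, the 5 with most summits, the 5 strongest absent from a replicate or the conservative list, 3 each way by rank difference between replicates, the stalk and 5S genes, and the 3 strongest of each other list. Further genes were named after their values were seen, as examples of their roles. A few genes within this rule are not reported. The search was tested on simulated data with planted summits. Python 3.11.15, numpy 2.4.6, pandas 2.3.3, scipy 1.17.1 and matplotlib 3.10.9 were used. Alternatives are described in the closing section.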

Additional observations from a re-analysis of the deposited data

How the results depend on the processing

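Of 51 alternative values, 42 stayed within 1.5 times the count or within the spread given, 9 moved and 0 changed sign. Without one replicate or the other, members with a summit within 10 kb numbered 75 to 78 (main 80), within 1 kb 52 to 60 (58), and members matched in both replicates 60 to 65 (68). No paired analysis was possible because there is only 1 group. The mm9 list gave 24 of 83 members within 1 kb. Allowing 2500 bp moved the median position from -60.5 to -46 bp. Counting motifs only within 50 bp of the summit, over 39 windows, moved ETS to 20.5%, EICE to 0%, ISRE and YY1 to 2.56% each, SP to 33.3%, NFY to 20.5% and the E-box to 2.56%, with both the window and the set of genes changed (67 to 39). Beside all genes, YY1, SP, NFY and AP-1 changed sides there. Members were at 2.56%, 33.3%, 20.5% and 2.56%, all genes at 3.12%, 34.6%, 15.2% and 2.16%. The YY1 and AP-1 values of members are 1 window each. SP had changed sides already over all windows with a summit, at 64.1% and 65.9%. The cause was not tested. The alternatives on listed starts, on the source of strand and on nearer neighbours were chosen after seeing the data. The unknown depth and signal scale limit comparison between replicates.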
